A study of Mus musculus with 12 samples.

Results

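A delta-6-desaturase inhibitor at 5 µM was compared with vehicle (ethanol and DMSO) in 3T3-L1 adipocytes that received no added fatty acid. 3T3-L1 is an established mouse preadipocyte line that fills with lipid when it is differentiated with a hormone cocktail. Cells were treated from day 0 to day 8 of differentiation, with insulin at 5 µg/ml in the maintenance medium, and RNA was taken on day 8. There were 3 inhibitor arrays and 3 control arrays, 1 per group from each of passages 6, 7 and 8, out of 12 arrays in the study. The other 6 arrays came from cells given alpha-linolenic acid (ALA, a plant omega-3 fatty acid) at 50 µM, 3 without and 3 with the inhibitor. The comparison is described across genes whose mean log2 signal over the 6 arrays was above 6.19, the mean of their array medians. This rule kept 10032 of 19480 genes. All 6 cultures belong to 1 cell line, so the spread between arrays is that between cultures, and the labels name neither the inhibitor compound nor the vehicle of the inhibitor arm.

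The closest genes inside the signal threshold were Sox15, Galnt12 and Pramel5, and the closest outside were Me3, 2310001K24Rik and Smim22. Within 0.05 of the threshold lay 254 genes, 63 genes were kept by their inhibitor mean alone and 132 by their control mean alone. Array medians were 6.19 to 6.23 in control and 6.14 to 6.18 with the inhibitor. The 6 arrays correlated with each other at 0.989 to 0.993 over all clusters. The ALA array of passage 7 stood apart from the other arrays of the study (correlations of 0.976 to 0.987, against 0.989 to 0.994 among the other 11). It enters the present comparison only through the shared estimate of the spread.

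Delta-6-desaturase, the product of Fads2, puts the first new double bond into linoleic acid and ALA on the way to arachidonic acid and the long-chain omega-3 fatty acids. The SREBP transcription factor family switches on genes of cholesterol and fatty acid synthesis. Polyunsaturated fatty acids hold back the maturation of its member SREBP1, which acts mainly on genes of fatty acid synthesis. They also act on cell surface receptors such as FFAR4 and on PPARG, the master factor of the adipocyte. Arachidonic acid released by phospholipase A2 is the substrate of the cyclooxygenases.

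The cells carried the RNA of adipocytes in both groups. Adipoq, the hormone adiponectin, lay between 12.98 and 13.20 on all 6 arrays, and its groups overlapped. Of 23 adipocyte markers on the array 22 were above the median, as were 11 of 16 preadipocyte and fibroblast markers. Of other cell types, 1 of 11 macrophage, 1 of 10 endothelial, 4 of 12 muscle and 4 of 10 osteoblast and chondrocyte markers were above it. The macrophage gene, Fcgr1, measured 6.63 ± 0.07 in control and 6.64 ± 0.17 with the inhibitor, and the endothelial gene, Esam, 7.17 ± 0.15 and 7.22 ± 0.32 (mean ± SD, n = 3). In bulk RNA, fewer cells of a type and less RNA per cell cannot be told apart.

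No gene passed the adjusted threshold in limma. Of the 10032 genes 0 (0%) had an adjusted p under 0.05, and the smallest adjusted p was 0.828. At an unadjusted p under 0.01, the threshold named in the study's design, there were 38 genes (0.379%), of which 14 were higher (0.14%) and 24 lower (0.239%). Evenly spread p-values would put 100 genes there. At an unadjusted p under 0.05 there were 241 genes (2.4%), 125 higher (1.25%) and 116 lower (1.16%), where evenly spread p-values would put 502. With passage as a block there were 111 genes under 0.01 (1.11%), 39 higher (0.389%) and 72 lower (0.718%), and 529 under 0.05 (5.27%; 2.67% higher and 2.6% lower), again with 0 at the adjusted threshold and a smallest adjusted p of 0.339.

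Differences were small for most genes. The median size of the log2 difference was 0.089, 90% of genes lay within 0.24, and the median standard error was 0.14. The inhibitor mean was the higher one for 5728 genes (57.1%), with a median difference of 0.02. This share depended on scaling, at 51.2% after quantile normalization and 71.1% with arrays centred on their medians. Among the 38 genes 36.8% were higher, the same share as after quantile normalization (38 genes), against 66.7% of 45 genes with centred arrays. All 3 inhibitor arrays lay above all 3 control arrays for 786 genes (7.83%) and below them for 358 (3.57%). After quantile normalization these counts were 596 (5.94%) and 457 (4.56%), so that the excess of higher genes was smaller. The passages did not weigh alike: the inhibitor minus control differences of passages 6 and 7 correlated at 0.31 across genes, those of 7 and 8 at 0.21 and those of 6 and 8 at 0.12.

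**Figure D1:**
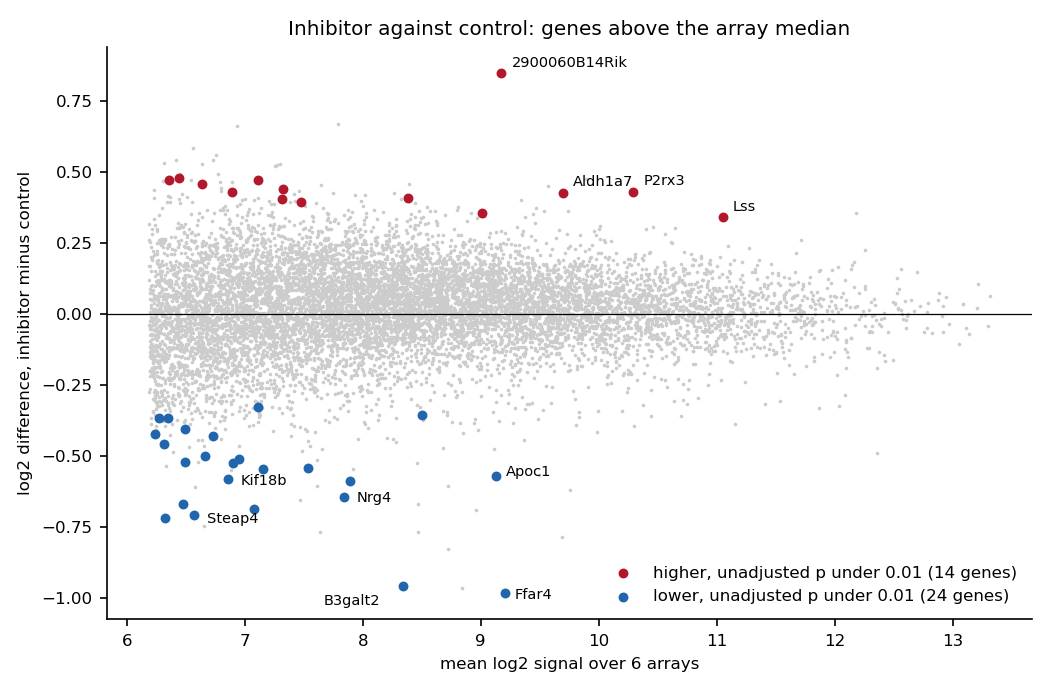
Log2 difference of inhibitor minus control against mean log2 signal over the 6 arrays, 1 point per gene above the array median (10032 genes). Red and blue points mark the 14 higher and 24 lower genes at an unadjusted p under 0.01, none of which passed the adjusted threshold.

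Among the lower genes with the smallest p were Nrg4, Ffar4 and Kif18b. Nrg4 encodes neuregulin 4, a secreted ligand of the epidermal growth factor family that brown and white fat release. It measured 8.29, 8.02 and 8.19 in control and 7.5, 7.56 and 7.49 with the inhibitor, in passages 6, 7 and 8, the order used for all array values. The control arrays were all higher, and the inhibitor arrays lay close together. The difference was -0.65 (SE 0.12, limma unadjusted p = 0.00015, adjusted p = 0.83). Ffar4, the receptor for long-chain fatty acids also called GPR120, measured 9.92, 9.68 and 9.48 in control and 8.18, 8.74 and 9.21 with the inhibitor. The groups did not overlap, and the gap was widest in passage 6 and narrowest in passage 8. The difference was -0.98 (SE 0.22, unadjusted p = 0.00079, adjusted p = 0.91). It was -0.60 with passage 6 left out. Pck1 (-0.97) and B3galt2 (-0.96), described further on, had lower differences of nearly the same size. Kif18b, a kinesin that shortens microtubules in mitosis, measured 7.23, 7.13 and 7.08 in control and 6.59, 6.51 and 6.60 with the inhibitor, a difference of -0.58 (SE 0.11) seen alike in each passage.

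B3galt2, a galactosyltransferase of the Golgi, measured 8.65, 8.73 and 9.07 in control and 7.42, 7.59 and 8.56 with the inhibitor. Inhibitor 8 was the highest of its group, just under the lowest control array. The difference was -0.96 (SE 0.27, adjusted p = 1). Apoc1, an apolipoprotein, measured 9.47, 9.29 and 9.48 in control and 8.94, 8.74 and 8.85 with the inhibitor, with a difference of -0.57 (SE 0.16). Steap4, a metalloreductase of adipocytes, measured 7.08, 6.89 and 6.82 in control and 5.90, 6.12 and 6.64 with the inhibitor, a difference of -0.71 (SE 0.17) that was widest in passage 6. Gys2, a glycogen synthase, differed by -0.53 (SE 0.14), and its 3 pairs differed by similar amounts.

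The other lower genes named by p were Wfdc1 (-0.72), Wfdc21 (-0.69), Apol8 (-0.50), Aldh3b2 (-0.54) and Cmbl (-0.59). Wfdc1 and Wfdc21 encode secreted proteins with a whey acidic protein domain, Apol8 an apolipoprotein L, and Aldh3b2 an aldehyde dehydrogenase. Wfdc1 measured 6.71, 6.67 and 6.66 in control and 6.23, 5.84 and 5.81 with the inhibitor, so that its inhibitor mean lay below the signal threshold. All 12 genes named by p on this side had control arrays above every inhibitor array, which the rule for naming them favours. Their adjusted p-values ran from 0.83 to 1, and from 0.34 to 0.56 with passage as a block.

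By size of the difference among genes whose arrays did not overlap, the lower side added Arxes1, Osr2 and Trf. Arxes1, a gene switched on during fat cell differentiation, measured 7.11, 6.78 and 7.20 in control and 6.35, 5.84 and 6.65 with the inhibitor. Osr2, a zinc finger transcription factor, measured 7.77, 7.78 and 8.50 in control and 6.91, 7.15 and 7.69 with the inhibitor. Both followed passage in both groups, so that their standard errors of 0.28 and 0.31 were wide beside differences of -0.75 and -0.77, and their unadjusted p with the passage block was 0.00015 and 0.00011. Trf, transferrin, measured 9.07, 9.24 and 8.25 in control and 8.00, 8.06 and 8.20 with the inhibitor. Its control array of passage 8 was close to the inhibitor arrays, and the difference of -0.77 (SE 0.29) came from passages 6 and 7.

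On the higher side, Aldh1a7, a cytosolic aldehyde dehydrogenase, measured 9.52, 9.34 and 9.58 in control and 9.94, 9.89 and 9.89 with the inhibitor. It has a close paralog in Aldh1a1, whose RNA its probes may also read. The inhibitor arrays were all above the control arrays, by 0.43 (SE 0.10, unadjusted p = 0.0012, adjusted p = 0.91). P2rx3, an ion channel opened by ATP, measured 10.05, 10.12 and 10.06 in control and 10.49, 10.52 and 10.50 with the inhibitor, also a difference of 0.43 (SE 0.11). The arrays within each of its groups lay very close together. The unclassified transcript 2900060B14Rik had the largest higher difference, 0.85 (SE 0.23), from 8.49, 8.65 and 9.10 in control to 9.58, 9.83 and 9.38 with the inhibitor. In passage 8 its gap was the narrowest.

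Stim2, the calcium sensor of the endoplasmic reticulum, measured 8.08, 8.24 and 8.22 in control and 8.66, 8.59 and 8.51 with the inhibitor (difference 0.41, SE 0.11). Coq6, a monooxygenase of ubiquinone synthesis, measured 7.36, 7.07 and 7.41 in control and 7.70, 7.61 and 7.70 with the inhibitor (difference 0.39, SE 0.11). Aph1c, a subunit of gamma-secretase, differed by 0.44 and Zfyve19, which acts at the end of cell division, by 0.41. Zscan12 (0.46), Prxl2b (0.47), Rpusd4 (0.48) and Gpank1 (0.47) had control means of 6.12 to 6.87, near the signal threshold, and Prxl2b passed it through its inhibitor mean alone. The adjusted p-values of the 12 higher genes named by p ran from 0.91 to 1, and from 0.44 to 0.66 with passage as a block.

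The largest higher differences without overlap also included 2 genes of arachidonic acid use. Pla2g4a, the cytosolic phospholipase A2 that frees arachidonic acid from membranes, measured 7.53, 7.14 and 7.70 in control and 8.36, 7.97 and 8.05 with the inhibitor. Every inhibitor array was above every control array, by 0.67 on average (SE 0.24, unadjusted p = 0.014, adjusted p = 1). Ptgs2, cyclooxygenase 2, measured 5.95, 6.30 and 6.55 in control and 6.84, 6.72 and 7.00 with the inhibitor, a difference of 0.58 (SE 0.20, unadjusted p = 0.012, adjusted p = 1). Its controls straddled the signal threshold. In the whole eicosanoid list 10 of the 15 genes above the median, these 2 included, were higher and 5 lower, with a median of 0.01. Alox5ap, which presents arachidonic acid to 5-lipoxygenase, measured -0.20 and Ltc4s, the leukotriene C4 synthase, -0.10 as inhibitor minus control. Ptges2, a prostaglandin E synthase, also had every inhibitor array above every control array, at 8.59, 8.63 and 8.55 in control and 8.88, 8.74 and 8.64 with the inhibitor. Its difference was 0.16 (SE 0.12), and 0.45 in the ALA-fed cells. The remaining genes named by size were Slc26a11, an anion transporter (0.56), Tmem67, a protein of the cilium base (0.54), and Stx8, a membrane fusion protein (0.52). Tmem67 passed the signal threshold through its inhibitor mean alone, and Slc26a11 was at 0.25 with passage 7 left out.

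**Figure D2:**
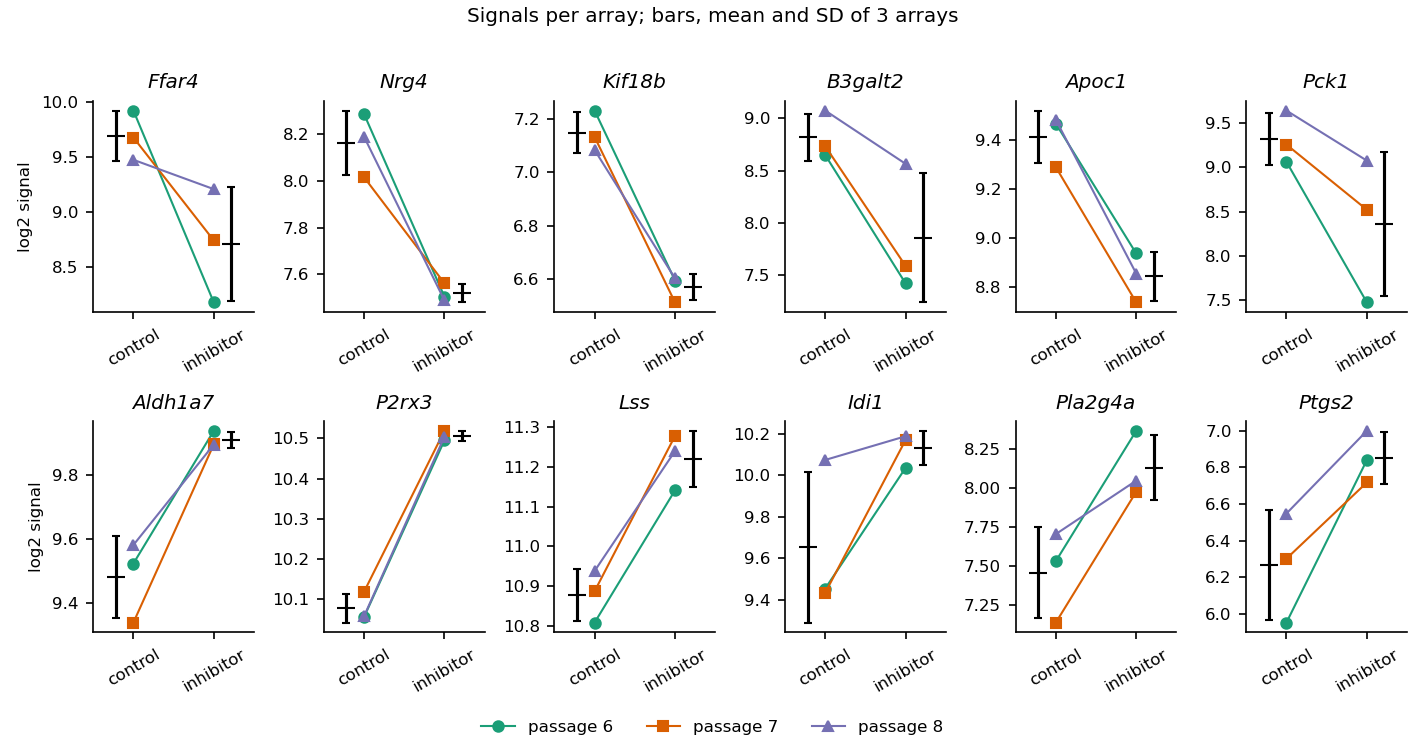
Log2 signal of 12 genes on each control and inhibitor array, with lines joining arrays of the same passage and bars giving mean and SD of 3 arrays. Inhibitor arrays are lower for Ffar4, Nrg4, Kif18b, B3galt2 and Apoc1 and higher for Aldh1a7, P2rx3, Lss, Pla2g4a and Ptgs2. Pck1 and Idi1 overlap between groups, but within each passage Pck1 is lower and Idi1 higher.

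Genes of cholesterol synthesis and uptake leaned to the higher side. Of the list's 17 genes, all above the median, 16 were higher with the inhibitor and 1 lower, where 57.1% of all genes were higher. The list's median difference was 0.19 beside 0.02 for all genes. It was 0.17 after quantile normalization. The list mean was 10.09, 10.02 and 10.20 in control and 10.27, 10.28 and 10.34 with the inhibitor, so that each inhibitor array was above every control array. At an unadjusted p under 0.05 there were 4 higher, against 1.25% of all genes above the median, and 0 lower, with 0 at the adjusted threshold. In 8 of the 17 every inhibitor array was above every control array, against 7.83% of all genes.

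Along the pathway, Hmgcs1, which makes the first committed intermediate, measured 0.16 as inhibitor minus control, and Mvk and Pmvk, the mevalonate kinases, 0.20 and 0.28. Mvd, the decarboxylase that follows them, measured 9.42, 9.53 and 9.60 in control and 9.69, 9.86 and 9.88 with the inhibitor, a difference of 0.30 (SE 0.11, unadjusted p = 0.015). Idi1, the isopentenyl diphosphate isomerase, measured 9.45, 9.43 and 10.07 in control and 10.04, 10.17 and 10.19 with the inhibitor, a difference of 0.48 (SE 0.22, unadjusted p = 0.046). Its control of passage 8 lay within the inhibitor range. Fdps, the farnesyl diphosphate synthase, differed by 0.26 and Fdft1, the squalene synthase, by 0.14.

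Sqle, the squalene epoxidase, was the exception at -0.06 (SE 0.12). The next enzyme, the lanosterol synthase Lss, measured 10.81, 10.89 and 10.94 in control and 11.14, 11.28 and 11.24 with the inhibitor. These groups did not overlap, and the difference of 0.34 (SE 0.11, unadjusted p = 0.0074, adjusted p = 1) was the only one of the list with an unadjusted p under 0.01. Of the later sterol enzymes Ebp differed by 0.24, Hsd17b7 by 0.19, Cyp51 by 0.18, Dhcr7 by 0.17, Sc5d by 0.13, Msmo1 by 0.07 and Nsdhl by 0.03. Stard4, which carries sterol within the cell, differed by 0.22.

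The genes that control SREBP or move sterols out of lysosomes were higher by less. Of the 7 genes above the median, 7 were higher, against 57.1% of all genes, with a median of 0.14. At an unadjusted p under 0.05 there were 0, and Srebf2, the SREBP gene of the sterol pathway, measured 0.00 (SE 0.11). Npc2 and Npc1, the lysosomal cholesterol carriers, differed by 0.23 and 0.18. Insig1, which holds SREBP in the endoplasmic reticulum and is itself a target of it, measured 11.39, 11.23 and 11.11 in control and 11.41, 11.46 and 11.33 with the inhibitor (difference 0.16, SE 0.13). The groups of Insig1 overlapped. The list median was 0.06 without inhibitor 8.

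**Figure D3:**
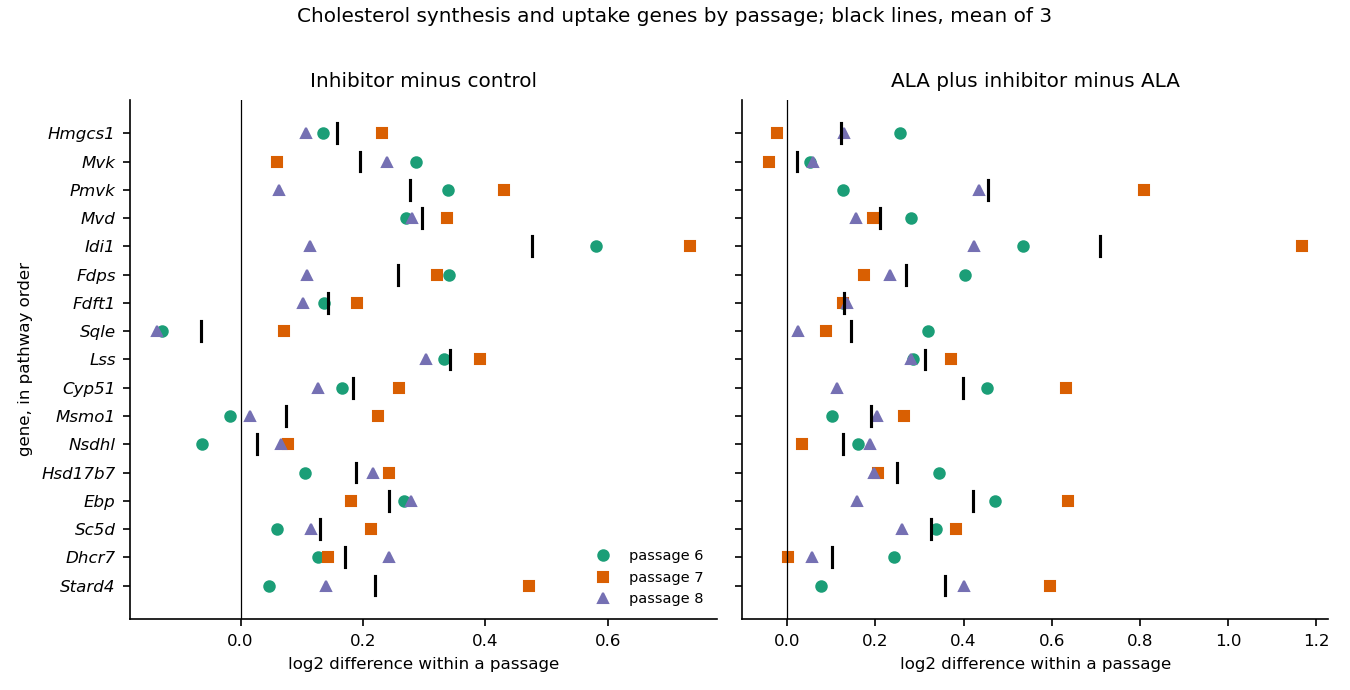
Log2 difference within each passage for the 17 cholesterol synthesis and uptake genes in pathway order, inhibitor minus control on the left and ALA plus inhibitor minus ALA on the right; black lines are the means of 3. On the left 16 of 17 means lie above 0, the exception being Sqle at -0.06, and on the right all 17 do.

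Promoter sequence was searched for the genes of this list, since they differed in the same direction. The window was the 250 bases upstream of the start, from the RefSeq table of build GRCm38.p6, which held 8187 of the 10032 genes and 13 of the 17. Both strands were read for the CCAAT box (CCAAT), the site of the factor NF-Y, and for 1 form of the sterol regulatory element (TCACNCCAC), the site of SREBP. The CCAAT box was found in 13 of 13 promoters, against 40.9% of the 8187 genes above the median and 37.5% of 27025 genes in the table. The sterol element was found in 1 of 13, Hmgcs1, against 1.23% of the genes above the median and 1.22% of the table. The 3 promoters shown belong to the list's genes with an unadjusted p under 0.05, other than Fdps. They are those of Lss (chr10:76531355-76531604, plus strand), Mvd (chr8:122443423-122443672, minus strand) and Idi1 (chr13:8885356-8885605, plus strand), 5′ to 3′ and ending at the base before the start. Capitals mark the CCAAT box, written ATTGG where it lies on the other strand.
Lss: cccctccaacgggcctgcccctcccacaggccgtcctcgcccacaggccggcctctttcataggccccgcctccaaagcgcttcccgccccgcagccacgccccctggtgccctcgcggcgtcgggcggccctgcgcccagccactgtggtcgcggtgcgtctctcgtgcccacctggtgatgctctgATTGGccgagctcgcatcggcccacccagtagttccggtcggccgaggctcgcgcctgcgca
Mvd: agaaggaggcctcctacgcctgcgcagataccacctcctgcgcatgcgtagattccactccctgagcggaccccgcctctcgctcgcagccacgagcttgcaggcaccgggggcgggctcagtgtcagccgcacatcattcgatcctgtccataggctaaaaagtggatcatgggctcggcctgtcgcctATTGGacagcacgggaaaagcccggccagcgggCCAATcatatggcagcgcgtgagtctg
Idi1: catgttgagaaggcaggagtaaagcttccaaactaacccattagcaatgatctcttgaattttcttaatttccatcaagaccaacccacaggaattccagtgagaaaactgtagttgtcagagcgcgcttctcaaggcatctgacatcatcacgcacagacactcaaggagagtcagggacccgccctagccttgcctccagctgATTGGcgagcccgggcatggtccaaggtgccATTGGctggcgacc

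The box lay 62 to 58 bases before the start in Lss. In Mvd there were 2, at 60 to 56 and 27 to 23 bases before the start, and in Idi1 there were 2, at 45 to 41 and 14 to 10. A match is a description of the letters in this window, and no binding was measured.

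The targeted pathway itself, long-chain polyunsaturated fatty acid synthesis, differed by little. Fads2, which encodes the delta-6-desaturase, measured 12.61, 12.58 and 12.66 in control and 12.77, 12.80 and 12.73 with the inhibitor. The groups did not overlap, and the difference was 0.15 (SE 0.09, adjusted p = 1); a transcript level is no measure of enzyme inhibition. Fads1, the delta-5-desaturase, measured 11.47, 11.63 and 11.60 in control and 11.78, 11.82 and 11.74 with the inhibitor (difference 0.21, SE 0.11), again without overlap. Of the elongases, Elovl5 differed by 0.07 and Elovl6 by 0.25, with overlap between groups in both. Of the 13 genes above the median, 10 were higher and 3 lower, with a median of 0.05 and 0 genes at an unadjusted p under 0.05.

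De novo lipogenesis, the synthesis of fatty acids from acetyl-CoA, was likewise close to the median of all genes, with 9 of 11 genes higher and a median of 0.04. At an unadjusted p under 0.05 there was 1 gene, higher, or 2 with the passage block, against 1.25% and 2.67% of all genes. The 1 gene was Acaca, the acetyl-CoA carboxylase. It measured 8.79, 8.61 and 8.62 in control and 8.87, 8.98 and 8.99 with the inhibitor, a difference of 0.28 (SE 0.11). Acss2, which makes acetyl-CoA from acetate, differed by 0.25 and the malic enzyme Me1 by 0.17. Fasn, the fatty acid synthase, measured 0.01 and Scd1, the delta-9-desaturase, -0.05. The list median was -0.03 without control 8.

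Genes of glycerol handling split by direction. Pck1, the kinase that supplies glycerol backbone from pyruvate in fat cells, measured 9.06, 9.26 and 9.65 in control and 7.47, 8.52 and 9.08 with the inhibitor. Inhibitor 8 overlapped the lowest control, while within each passage the inhibitor array was the lower. The difference was -0.97 (SE 0.35, unadjusted p = 0.016, and 0.0004 with the passage block, where the adjusted p was 0.35). It was -0.52 without inhibitor 6 and -1.33 without inhibitor 8. Aqp7, the glycerol channel, measured 9.69, 9.75 and 9.89 in control and 9.02, 8.90 and 9.71 with the inhibitor, a difference of -0.57 (SE 0.26). Gpd1, the cytosolic glycerol phosphate dehydrogenase, measured -0.19 and its mitochondrial partner Gpd2 0.26, with an unadjusted p under 0.05 only with the passage block. Of the 8 genes above the median 5 were higher and 3 lower, with a median of 0.05, so that the list as a whole did not lean to the side of Pck1 and Aqp7.

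Triacylglycerol synthesis had 10 of 14 genes lower and a median of -0.07, beside 42.9% of all genes lower. It had 0 genes at an unadjusted p under 0.05, or 1 lower with the passage block, against 2.6% of all genes. Bscl2, the seipin of the lipid droplet, measured 9.0, 9.09 and 8.59 in control and 8.62, 8.42 and 8.57 with the inhibitor (difference -0.36, SE 0.17), and the passage 8 pair was nearly equal. Agpat3 differed by -0.18 and Dgat2, which adds the last acyl chain, by -0.09. Of the lipolysis and lipid droplet list 12 of 15 were lower, with a median of -0.08. Pde3b, the phosphodiesterase through which insulin restrains lipolysis, measured 10.45, 10.26 and 10.43 in control and 10.01, 10.10 and 10.19 with the inhibitor, a difference of -0.28 (SE 0.13, unadjusted p = 0.048) without overlap. Abhd5, the activator of adipose triglyceride lipase, measured -0.20, its inhibitor G0s2 -0.17, Plin2 -0.13 and Plin3 0.19. By passage the lipolysis median was -0.18 in passage 6, -0.01 in 7 and -0.04 in 8, and it was -0.04 without inhibitor 6 and -0.16 without inhibitor 8. Pde3b was the 1 gene of the list at an unadjusted p under 0.05, against 1.16% of all genes. There were 2 lower genes with the passage block, against 2.6% of all genes.

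Receptors for free fatty acids and hydroxy acids were lower in 4 of 5 genes, against 42.9% of all genes above the median, with a median of -0.26. At an unadjusted p under 0.05 there were 2 lower, or 3 with the passage block, against 1.16% and 2.6% of all genes. Besides Ffar4, Ffar2, the receptor for short-chain fatty acids, measured 9.61, 9.60 and 9.44 in control and 8.93, 9.29 and 9.47 with the inhibitor. It was lower in passages 6 and 7 and level in passage 8, a difference of -0.32 (SE 0.14). Hcar2, the niacin receptor, differed by -0.25 and Hcar1, the lactate receptor, by -0.26, and both overlapped. Gpbar1, the bile acid receptor, was the exception at 0.17, with values near the signal threshold. The list median was -0.52 in passage 6, -0.28 in passage 7 and 0.03 in passage 8, and it was -0.14 with passage 6 left out and -0.44 without inhibitor 8.

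Genes of fatty acid uptake and binding went both ways, 5 of 16 higher and a median of -0.05, which was 0.01 without inhibitor 6. It held 0 genes at an unadjusted p under 0.05. With the passage block it held 2 higher and 1 lower, against 2.67% and 2.6% of all genes. Acsl4, the acyl-CoA synthetase that prefers arachidonic acid, measured 9.44, 9.36 and 9.27 in control and 9.96, 9.75 and 9.44 with the inhibitor. Its difference of 0.36 (SE 0.20) was 0.17 or more in each passage, and the unadjusted p was 0.089, or 0.0093 with the passage block. Fabp5, a fatty acid binding protein, differed by 0.30, and Cd36, the fatty acid translocase, by -0.23. Fabp4, the main fatty acid binding protein of fat cells, measured -0.04.

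Among adipogenic transcription factors 13 of 17 genes were lower, against 42.9% of all genes above the median, with a median of -0.05. Cebpa, which with PPARG maintains the adipocyte state, measured 10.03, 10.04 and 10.04 in control and 9.73, 9.71 and 9.90 with the inhibitor. The controls were nearly equal and all higher, and the difference was -0.26 (SE 0.10, unadjusted p = 0.023). Tle3, a corepressor that acts with PPARG, measured -0.21, Ebf1 -0.12 and Pparg itself -0.06. With centred arrays the list median was within 0.01 of 0.

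Of the adipokines and other secreted proteins 11 of 15 were lower, against 42.9% of all genes above the median, with a median of -0.14. Nrg4 and Apoc1 were the 2 genes at an unadjusted p under 0.05, against 1.16% of all genes. There were 4 lower genes with the passage block, against 2.6% of all genes. Lep, leptin, measured 7.52, 7.69 and 8.16 in control and 6.78, 7.41 and 7.77 with the inhibitor. It was lower within each passage, and the groups overlapped (difference -0.46, SE 0.25). Rarres2, chemerin, differed by -0.28, Angptl4, an inhibitor of lipoprotein lipase, by -0.30 and Apoe by -0.31, while Adipoq measured 0.04.

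The adipocyte markers as a list were lower in 17 of 22 genes with a median of -0.08, and 3 were lower at an unadjusted p under 0.05 (5 with the passage block), against 1.16% of all genes above the median (2.6% with the block). The 3 were Pck1, Cebpa and Aqp7. Car3, a carbonic anhydrase abundant in fat, measured 9.77, 9.98 and 10.48 in control and 9.06, 8.86 and 9.96 with the inhibitor, a difference of -0.78 (SE 0.37) present in every passage. The list mean was 11.10, 11.09 and 11.29 in control and 10.79, 10.95 and 11.16 with the inhibitor, and the median was -0.18 without inhibitor 8 and -0.05 without control 8. Preadipocyte and fibroblast markers were lower as well, in 10 of 11 genes with a median of -0.25, where 42.9% of all genes were lower. Of these markers 1 was lower at an unadjusted p under 0.05 (5 with the passage block), against 1.16% and 2.6% of all genes. Their list mean was 10.56, 10.72 and 11.04 in control and 10.31, 10.47 and 10.87 with the inhibitor, so that it followed passage more than treatment. Dlk1, the preadipocyte factor, measured 11.53, 11.57 and 11.59 in control and 11.14, 11.21 and 11.39 with the inhibitor (difference -0.32, SE 0.13). Sox9, a factor of undifferentiated mesenchyme, differed by -0.39, S100a4 by -0.37 and the matrix genes Dcn and Dpt by -0.32 and -0.25. The preadipocyte median was -0.04 without control 8, -0.05 without inhibitor 6 and -0.39 without inhibitor 8.

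Collagens and matrix genes were lower in 17 of 25, against 42.9% of all genes above the median. Their median of -0.04 turned to 0.01 with centred arrays and to 0.07 without inhibitor 6. The list had 0 genes at an unadjusted p under 0.05, or 4 lower with the passage block, against 2.6% of all genes. Lox, the collagen crosslinker, differed by -0.31, elastin (Eln) by -0.30, fibromodulin (Fmod) by -0.48 and the laminin chain Lamc1 by 0.21. In Fmod the passages spanned 6.28 to 7.33 in control and 5.53 to 7.04 with the inhibitor, a range wider than its difference.

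Acute-phase and inflammatory genes were lower in 17 of 21, against 42.9% of all genes above the median, with a median of -0.14. There were 3 lower at an unadjusted p under 0.05, Hp, Orm2 and Orm1, or 4 with the passage block, against 1.16% and 2.6% of all genes. Hp, haptoglobin, measured 9.81, 10.14 and 10.25 in control and 8.98, 9.61 and 9.75 with the inhibitor, a difference of -0.62 (SE 0.24). Orm2 measured 6.58, 6.75 and 7.31 in control and 5.85, 6.22 and 6.75 with the inhibitor, and Orm1 9.28, 9.11 and 9.67 against 8.67, 8.71 and 9.25. These acid glycoproteins of plasma are near-identical copies, so probes of the 2 genes may read both. All 3 genes were lower by a steady amount within passages, and the unadjusted p with the passage block was 0.00016, 9.2e-05 and 0.00092 (adjusted p = 0.34, 0.34 and 0.44). Cp, ceruloplasmin, differed by -0.42, Lcn2, lipocalin 2, by -0.25 and the complement gene C4b by 0.26. The list median was -0.02 without inhibitor 6 and -0.22 without inhibitor 8.

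NRF2 antioxidant targets were higher in 23 of 25 genes, against 57.1% of all genes above the median, with a median of 0.15. The list had 0 genes at an unadjusted p under 0.05, or 3 higher with the passage block, against 2.67% of all genes. The list mean was 9.77, 9.73 and 9.76 in control and 9.98, 9.90 and 9.80 with the inhibitor. Inhibitor arrays were all above control arrays, and the gap was 0.20 in passage 6 and 0.04 in passage 8 as a median over genes. The list median was 0.10 without inhibitor 6. Nqo1, the quinone reductase, measured 7.79, 7.63 and 7.87 in control and 7.92, 8.20 and 8.06 with the inhibitor (difference 0.29, SE 0.15). Txnrd1, the thioredoxin reductase, differed by 0.25, Hmox1, the haem oxygenase, by 0.23, Osgin1 by 0.22 and the pentose phosphate enzyme Taldo1 by 0.15. The antioxidant response element, searched in its core form TGACNNNGC, was found upstream of 4 of 20 of these genes (20%), against 13.5% of genes above the median and 11.5% of the table.

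Through the integrated stress response ATF4 switches on amino acid supply when translation is restrained. Of this list 23 of 27 genes were higher, against 57.1% of all genes above the median, with a median of 0.12. The list mean was 9.93, 9.94 and 9.92 in control and 10.11, 10.04 and 10.02 with the inhibitor, without overlap. Phgdh, the first enzyme of serine synthesis, measured 9.41, 9.47 and 9.78 in control and 10.05, 9.71 and 9.99 with the inhibitor (difference 0.36, SE 0.14, unadjusted p = 0.022), and Cars, the cysteinyl-tRNA synthetase, differed by 0.29 (SE 0.13, unadjusted p = 0.043). These were the 2 genes at an unadjusted p under 0.05, or 4 with the passage block, against 1.25% and 2.67% of all genes. Atf3, a stress-induced transcription factor, measured 7.38, 7.79 and 7.62 in control and 8.13, 7.63 and 8.00 with the inhibitor. It was lower in passage 7 and higher in the other two, a difference of 0.33 (SE 0.15). Slc7a11, the cystine importer that is also an NRF2 target, measured 6.50, 6.71 and 7.16 in control and 7.08, 6.99 and 7.21 with the inhibitor (difference 0.30, SE 0.15), with almost no gap in passage 8. Aldh1l2, a mitochondrial folate enzyme, differed by 0.29, Sesn2 by 0.17 and Ddit3, also called CHOP, by 0.30.

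The ATF4 site (CARE, TGATGNAA) was found upstream of 7 of the 23 integrated stress response genes with a promoter entry (30.4%), against 2.32% of genes above the median and 3.91% of the table. The CCAAT box was found in 13 of the 23 (56.5%), against 40.9% of genes above the median. Of the list's 2 genes at an unadjusted p under 0.05, Phgdh did not hold the CARE in this window and Cars had no promoter entry. Atf3 and Slc7a11 had an unadjusted p of 0.051 and 0.069 in limma. The promoters of Atf3 (chr1:191183334-191183583, minus strand) and Slc7a11 (chr3:50443614-50443863, minus strand) are shown as members that carry the site, 5′ to 3′ and ending at the base before the start. Capitals mark the CARE, written TTGCATCA on the other strand, and in Slc7a11 also 1 CCAAT box as ATTGG.
Atf3: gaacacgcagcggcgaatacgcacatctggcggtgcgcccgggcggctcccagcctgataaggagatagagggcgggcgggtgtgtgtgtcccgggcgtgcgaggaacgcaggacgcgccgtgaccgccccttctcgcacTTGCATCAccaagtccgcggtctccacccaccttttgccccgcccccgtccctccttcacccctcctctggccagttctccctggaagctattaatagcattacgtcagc
Slc7a11: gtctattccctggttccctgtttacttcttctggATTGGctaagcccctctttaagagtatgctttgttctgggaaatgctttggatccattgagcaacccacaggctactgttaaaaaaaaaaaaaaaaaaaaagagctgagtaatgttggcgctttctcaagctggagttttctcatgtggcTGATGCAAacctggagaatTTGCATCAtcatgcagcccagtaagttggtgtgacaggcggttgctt

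Slc7a11 had 2 such sites, at 66 to 59 and 47 to 40 bases before the start, and Atf3 had 1, at 110 to 103. None of the motifs searched overlapped another in the promoters shown.

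Chaperones of the endoplasmic reticulum leaned less, with 14 of 22 genes higher, against 57.1% of all genes above the median. The list had a median of 0.07 (0.02 without control 6) and 0 genes at an unadjusted p under 0.05. Hyou1, an ER chaperone, measured 10.25, 10.29 and 10.26 in control and 10.49, 10.52 and 10.38 with the inhibitor, a difference of 0.20 (SE 0.16) without overlap. The stress sensors Atf6 and Ern1 both differed by 0.21 and the co-chaperone Dnajc3 by -0.21. Cytosolic ribosomal proteins were higher in 26 of 27 genes, against 57.1% of all genes above the median, with a median of 0.11. Of these 27, 11 were higher in all 3 passages, against 21.7% of all genes, and 0 had an unadjusted p under 0.05. Their list mean was 10.92, 10.85 and 10.89 in control and 11.07, 11.05 and 10.90 with the inhibitor, a gap present in passages 6 and 7 and near 0 in passage 8. Rplp1 differed by 0.18 and Rpl27 by 0.25.

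Mitochondrial genes lay near the median of all genes. Oxidative phosphorylation subunits were higher in 20 of 33 with a median of 0.04, which was -0.01 without inhibitor 6, and Sdha, of the succinate dehydrogenase, differed by 0.18. Mitochondrial fatty acid oxidation had 11 of 18 genes lower and a median of -0.02. There Acaa2, the last thiolase of the spiral, measured -0.18 and Cpt2, the inner carnitine palmitoyltransferase, -0.16. In peroxisomal fatty acid oxidation 11 of 17 genes were higher with a median of 0.13 (0.07 without inhibitor 6), and 0 had an unadjusted p under 0.05. With the passage block there were 3 higher and 1 lower, against 2.67% and 2.6% of all genes. Acox3, an acyl-CoA oxidase, and Crot, a carnitine octanoyltransferase, both differed by 0.34. Abcd2, the peroxisomal importer of very long chain acyl-CoA, went the other way, at 8.73, 8.90 and 9.45 in control and 7.96, 8.24 and 9.06 with the inhibitor (difference -0.61, SE 0.30), lower within each passage.

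Thermogenic adipocyte markers were lower in 9 of 9 genes above the median, against 42.9% of all genes, with a median of -0.17. Of these 9, 3 were lower in all 3 passages, against 13.9% of all genes. Of the 19 on the array 10 were not above the median. Besides Nrg4, Cox7a1 differed by -0.25, Cox8b by -0.19 and Ppargc1b, a coactivator of mitochondrial genes, by -0.10. Cox8b lay near the signal threshold, and Nrg4 was the only gene of the list with an unadjusted p under 0.05, against 1.16% of all genes. The list median was -0.07 with passage 7 left out and -0.10 without control 8. The 13 other lists with 5 or more genes had medians from -0.14 to 0.07.

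**Figure D4:**
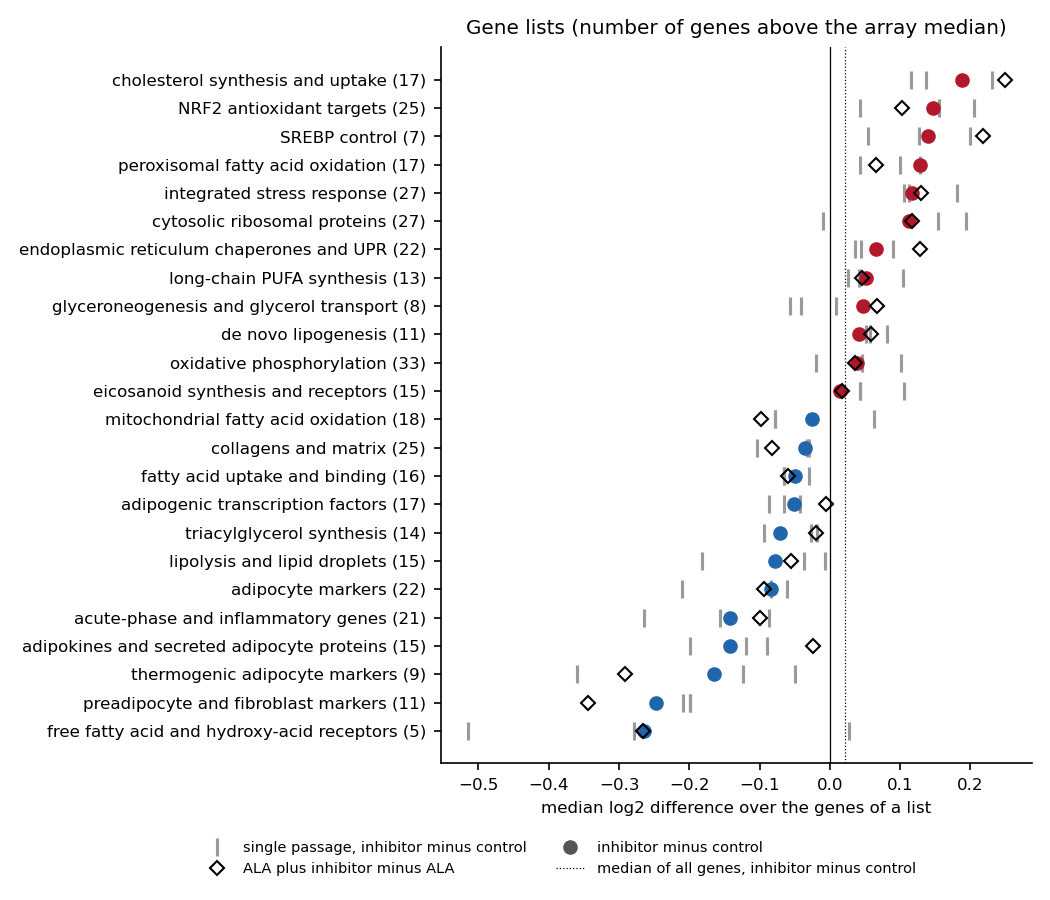
Median log2 difference over the genes of each list above the array median: filled circles, inhibitor minus control; grey ticks, the 3 passages; open diamonds, ALA plus inhibitor minus ALA; dotted line, the median of all genes at 0.02. Medians ran from -0.26 for the free fatty acid and hydroxy-acid receptors to 0.19 for cholesterol synthesis and uptake.

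The inhibitor was also given with ALA, and ALA plus inhibitor against ALA uses none of the 6 arrays described so far, though the same 3 passages. In that comparison 0 genes passed the adjusted threshold (smallest adjusted p 0.653), 98 had an unadjusted p under 0.01 (0.977%) and 601 under 0.05 (5.99%). The counts were 26 and 296 without the ALA array of passage 7, an alternative chosen after seeing the data. The 2 inhibitor effects had the same sign in 6661 of 10032 genes (66.4%), or 58.2% without that array. Their correlation across genes was 0.48, and 0.27 without passage 7. Within passages it was highest for passage 7, at 0.50. Genes share arrays and are not independent, so these values describe the arrays only.

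Of the 24 lower genes at an unadjusted p under 0.01, 21 were lower with ALA too (19 without the ALA array of passage 7), with medians of -0.53 without ALA and -0.19 with it. Of the 14 higher genes 11 were higher with ALA, but 7 without that array, and the median went from 0.43 to 0.09. At an unadjusted p under 0.05 without ALA, 92 of 116 lower and 99 of 125 higher genes had the same sign with ALA, or 84 and 84 without that array. These genes were chosen on the values without ALA, so the sizes in the 2 comparisons are not on an equal footing. The difference of the 2 effects was tested as an interaction: 0 clusters passed (smallest adjusted p 1), with 9 genes above the median at an unadjusted p under 0.01 (0.0897%) and 130 under 0.05 (1.3%).

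In ALA-fed cells Nrg4 measured 8.08, 8.33 and 7.96 with ALA alone and 7.68, 7.56 and 7.56 with both. The groups were again apart, by -0.52 (SE 0.12, unadjusted p = 0.00091, adjusted p = 0.65), and by -0.42 without the ALA array of passage 7. B3galt2 measured 8.52, 8.97 and 8.95 with ALA and 7.64, 7.72 and 8.30 with both, a difference of -0.93 close to that without ALA. Pck1 measured 9.08, 9.70 and 9.71 with ALA and 7.91, 8.31 and 8.75 with both, a difference of -1.17 (SE 0.35) with no overlap. Ffar4 differed by -0.56, Arxes1 by -0.94, Osr2 by -0.90, Trf by -0.81 and Car3 by -1.44, all lower as without ALA. The mean of Car3 was 10.72 with ALA alone and 10.08 in control, and 9.28 with both and 9.29 with the inhibitor alone.

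Pla2g4a and Ptgs2 were higher with the inhibitor here as well. Ptgs2 measured 6.39, 5.88 and 6.16 with ALA and 7.22, 6.79 and 6.51 with both (difference 0.69, SE 0.20), and Pla2g4a 7.86, 6.90 and 7.24 against 8.27, 8.02 and 7.69 (difference 0.66, SE 0.24). The groups were apart for Ptgs2 and overlapped for Pla2g4a, and the differences were 0.56 and 0.44 without the ALA array of passage 7. Idi1 differed by 0.71, or 0.44 without that array. The cholesterol list was higher in 17 of 17 genes with a median of 0.25, and in 16 with a median of 0.20 without it. The peroxisomal list had a median of 0.07 with ALA and -0.03 without that array.

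Other leading genes did not repeat, or differed by less, in the ALA-fed cells. The transcript 2900060B14Rik measured 8.47, 8.45 and 9.10 with ALA and 8.60, 9.12 and 8.46 with both, a difference of 0.05 against 0.85 without ALA (interaction -0.80, SE 0.32, unadjusted p = 0.027, adjusted p = 1). Coq6 measured 7.60, 7.63 and 7.64 with ALA and 7.55, 7.44 and 7.47 with both, so that the inhibitor arrays were the lower (interaction -0.53, SE 0.16, adjusted p = 1). Zscan12 differed by -0.19 with ALA and 0.46 without, and Gys2 by 0.05 and -0.53. Apoc1 differed by -0.10 with ALA and -0.57 without ALA. With ALA it differed by -0.26 once the ALA array of passage 7 was left out. Its ALA arrays measured 9.17, 8.47 and 8.71, below all 3 control arrays. Kif18b was lower by less, at -0.20 (SE 0.11). None of these differences between effects passed the adjusted threshold.

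**Figure D5:**
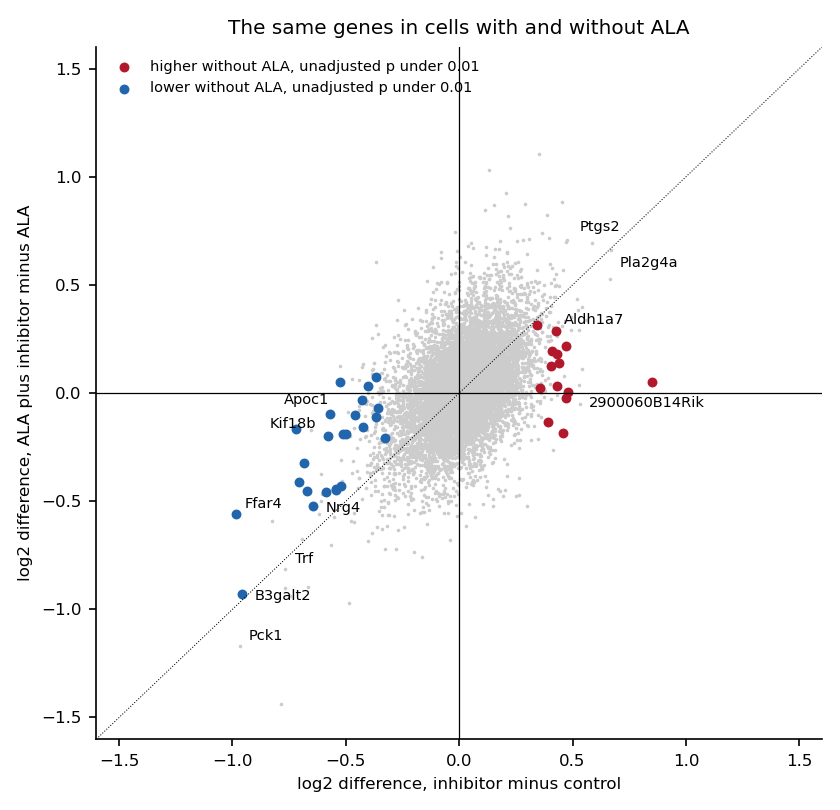
Log2 difference of ALA plus inhibitor minus ALA against that of inhibitor minus control, 1 point per gene above the array median, with the dotted line marking equal differences. Coloured points are the 38 genes at an unadjusted p under 0.01 without ALA; most lie nearer 0 on the vertical axis, and Ptgs2, Pla2g4a, Pck1, Trf and B3galt2 lie near the line.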

How the data were processed

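RNA from 12 cultures was measured on 1-colour arrays. The authors deposited log2 signals of transcript clusters, and the submitters' processing notes name RMA (background correction, normalization and summary of probes). Its version was not given in these sources. RMA compresses dim signals, and array number rather than depth limits the precision. Samples were grouped by treatment label. The array annotation held by GEO gave 1 symbol to 19509 of 22104 clusters and none to 2595; for 29 further clusters of a gene the brighter one stood for it.

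In R 4.3.3 with limma 3.58.1, 1 model with 4 treatment means was fitted to all 12 arrays (8 residual and 4.66 prior degrees of freedom) on the values as deposited, with eBayes, two-sided p-values and Benjamini-Hochberg adjustment over all 22104 clusters. The signal filter was applied afterwards. An exact permutation test of 3 against 3 arrays cannot go below p = 0.1 and was not used. Lists are described by counts and medians. The code was tested on simulated data.

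Arrays of the same passage deviated together in control and inhibitor (correlations of 0.40, 0.20 and 0.58 over the genes described, and 0.19, 0.08 and 0.36 over all clusters), so values with passage as a block (6 residual degrees of freedom) are printed beside counts that they move by over 1.5 times.

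Named were up to 12 higher and 12 lower genes of smallest p under 0.01 with the same sign in every passage, 6 and 6 of largest difference without overlap, up to 4 genes of smallest p per list described (24 of 42 lists), and a fixed set that included Fads2, Adipoq and Lss. Other list genes with values, such as Cyp51 and Taldo1, were added after their values were seen. Genes, lists and rules were chosen with earlier results of these data known. Alternatives were other models, weights, scalings, filters and left-out arrays.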

Additional observations from a re-analysis of the deposited data

How the results depend on the processing

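The count of clusters at the adjusted threshold was 0 under every alternative run, for the inhibitor against control and for the difference of its effects with and without ALA. The 38 genes at an unadjusted p under 0.01 became 111 with passage as a replicate block, 80 with that block on the 6 arrays alone, 118 with array weights, 58 with an intensity trend, 71 with dim clusters left out before the fit and 10 above the 75th percentile of signal. Leaving out arrays gave 10 to 66: 25 without control 6, 22 without control 7, 22 without inhibitor 7, 66 without the ALA array of passage 7, 14 without passage 6 and 10 without passage 7. The cause was not tested.

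Of 127 genes 5 changed sign under an alternative. With 1 array or passage left out, Tnc ranged from -0.61 (without inhibitor 7) to 0.0395 (inhibitor 6), Adipoq from -0.0119 (inhibitor 8) to 0.094 (inhibitor 6) with -0.00856 without passage 7, and Fabp4 from -0.0782 (control 7) to 0.0205 (control 8). Plin1 ranged from -0.199 (inhibitor 8) to 0.0368 (inhibitor 6) with 0.0164 without control 8. Fasn ranged from -0.0882 (control 8) to 0.0928 (control 7), with -0.0152 and -0.0435 without inhibitor 6 and 7 and -0.00435 and -0.014 without passages 6 and 8. Fabp4 was at 0.0123 with centred arrays and Fasn at -0.00173 after quantile normalization. The passage block could not change the direction of a gene, since each group has 1 array per passage. The median standard error was 0.14 in the fit without the passage block. With 3 arrays a group, differences of the size seen in most genes could not be told from the spread.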
